A study of Mus musculus with 6 samples.

Results

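The 6 cytokine genes described here are Csf1, Csf2, Il3, Lif, Osm and Il24, listed by the authors as CSF1, CSF2, IL3, LIF, OSM and IL24. They were taken by symbol from the deposited tables, which list 24982 symbols, and all 6 were found in both the count table and the FPKM table and passed the filter on low counts. The cells were mouse natural regulatory T cells (nTreg), sorted by flow cytometry from spleen as CD4+CD25+CD127lo cells, from animals of strain B6.129 aged 8 to 10 weeks. For each genotype 3 animals were used. The WT animals were compared with animals labelled Srsf1-flox/flox dLck.Cre (KO), in which Cre is driven by the distal Lck promoter, so that the splicing factor Srsf1 is deleted in T cells rather than in nTreg alone. The labels do not say whether the WT animals carried Cre or floxed alleles. Cells of both genotypes were cultured for 72 h before RNA was taken, with antibodies to CD3 and CD28 at 2 µg/ml each and with rIL-2 at 10 ng/ml. Every value therefore describes stimulated cells, and no unstimulated group was analysed here. One label field calls the cells effector CD4 T cells, whereas the titles and the sorting protocol call them nTreg.

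Csf1 (M-CSF) supports the survival and growth of macrophages and signals through the receptor tyrosine kinase Csf1r. Csf2 (GM-CSF) and Il3 are neighbouring genes whose products act on granulocytes, macrophages, mast cells and basophils through receptors that share a beta chain and signal through Jak2 and Stat5. Lif and Osm are also neighbours and belong to the interleukin 6 family, which signals through the shared chain Il6st, Jak kinases and Stat3. Il24 lies in the Il10 gene cluster, and its product signals through Il20rb paired with Il20ra or Il22ra1 to Stat3. Activated T cells are a known source of Csf2, Il3, Lif and Osm, and Lif has been described in regulatory T cells. Transcripts of several of these cytokines are short-lived, and AU-rich elements with repeats of ATTTA in the 3′ untranslated region (UTR) are bound by factors such as Zfp36 that promote their decay.

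The stretch of at most 30 bases that holds the most ATTTA copies is shown for the 5 genes with a complete 3′ UTR model. These elements are known to be bound by some of the mRNA-binding factors tested further on, such as Zfp36. The sequences run 5′ to 3′ in the DNA alphabet on the sense strand, are from the GENCODE M21 transcripts, and have ATTTA in capitals.
Csf1: ATTTAaatatctATTTAaaaaataggaagc
Csf2: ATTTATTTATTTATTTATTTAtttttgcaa
Lif: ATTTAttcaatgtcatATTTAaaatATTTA
Osm: ATTTAtaaggcctATTTAtaatgtatattt
Il24: ATTTAttacagccctattaaattattgtca
The Csf2 stretch holds 5 overlapping copies, the Lif stretch 3, the Csf1 and Osm stretches 2 each and the Il24 stretch 1. Over the whole 3′ UTR, Csf2 had 9 copies in 317 bases, Il24 had 4 in 381, Osm had 6 in 1017, Lif had 7 in 3180 and Csf1 had 4 in 2111. The Il3 model, 101 bases with 1 copy, ends short of the RefSeq transcript and its stretch is not shown. Among 11231 tested genes with a 3′ UTR of at least 30 bases, 70.8% had at least 1 copy. The density in Csf2, 28.4 copies per kb, was reached by 0.0356% of those genes, and that in Il24, 10.5 per kb, by 0.828%. For Csf1 and Lif the densities were 1.89 and 2.2 per kb, which 37.6% and 31.8% of the genes reached. The longer element TTATTTATT, which overlaps ATTTA, was present 4 times in Csf2 and 2 times in Lif, was not found in Csf1, Osm or Il24, and was present in 8.31% of tested genes.

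In FPKM, which scale counts by gene length and depth and so allow levels to be compared between genes, Il24 had the highest mean of these transcripts in both genotypes, though Csf2 exceeded it in KO replicate 2. In WT libraries Il24 averaged 295 ± 103 FPKM (SD, n = 3), followed by Lif at 44.2 ± 20.2, Csf2 at 39.7 ± 24.5, Il3 at 37.4 ± 25.8, Osm at 17.5 ± 3.97 and Csf1 at 0.898 ± 0.294. The ranges of Lif, Csf2, Il3 and Osm overlapped from one to the next, while Il24 lay above all of them and Csf1 below. In KO libraries the order was Il24 at 106 ± 45.0 FPKM, Csf2 at 41.1 ± 25.2, Il3 at 38.5 ± 26.2, Lif at 20.2 ± 7.19, Osm at 13.02 ± 7.93 and Csf1 at 3.51 ± 1.69. There, Csf1 was the only gene whose range was separate from that of its neighbour in the order.

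**Figure D1:**
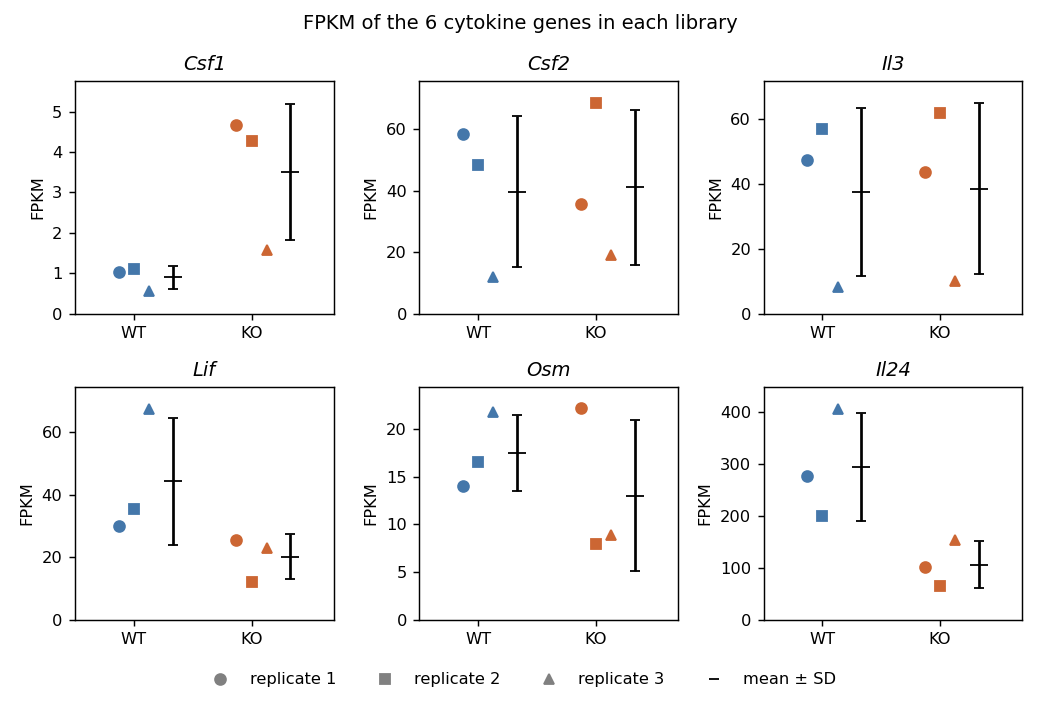
FPKM of each of the 6 genes (one panel per gene, vertical axis in FPKM from 0) in the 3 WT and 3 KO libraries. Symbols give the replicate number and bars the mean ± SD. Csf1 was higher in all KO libraries, Lif and Il24 were lower in all of them, and the Csf2 and Il3 points of replicate number 3 were the lowest of each group.

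The 6 libraries held 10183626 to 27562046 counts, and 3 counts corresponded to 0.109 to 0.295 CPM, the count scaled to the library size after TMM normalization. Srsf1 itself measured 1213 and 1230 CPM in WT replicates 1 and 2, 755 CPM in the library labelled WT replicate 3, and 438, 811 and 786 CPM in the KO libraries. The level in the library labelled WT replicate 3 thus lay inside the KO range, against its label (log2 fold change -0.65 ± 0.32 SE, adjusted p = 0.682). The samples came from separate mice, and all replicate pairs differed beyond counting noise. KO replicate 1 stood apart, with Pearson correlations of 0.9 to 0.927 with the other libraries across genes. By sex-linked transcripts, replicate numbers 1 and 3 were female and number 2 male in both genotypes. Foxp3, the defining factor of regulatory T cells, was detected in every library, at 104 to 160 CPM in WT and 356 to 464 CPM in KO (log2 fold change 1.68 ± 0.25, adjusted p = 0.197). The other listed markers of these cells did not all move with it. Ikzf2 (0.91 ± 0.32) and Cd4 (0.70 ± 0.23) were higher in each KO library, whereas Il2ra (-0.09 ± 0.32) and Ctla4 (-0.79 ± 0.46) overlapped. The summed CD8 transcripts Cd8a and Cd8b1 ran from 193 to 269 CPM in WT and from 38.9 to 60.4 CPM in KO, although the sort took CD4+ cells. In RNA from bulk cells, fewer cells of a type and less RNA per cell cannot be told apart.

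Counts were compared with the edgeR quasi-likelihood test, with p-values adjusted by the Benjamini-Hochberg method over the 11772 genes tested and a threshold of 0.05. None of the 6 genes passed it (0 of 6, where 0.017% of all tested genes were called). At an unadjusted p under 0.05 there were 3 of the 6, Csf1, Lif and Il24, against 7.51% of all tested genes (4.75% higher and 2.76% lower in KO). The same 3 genes had WT and KO libraries that did not overlap in CPM, 1 higher and 2 lower in KO, against 15.6% of all tested genes (7.47% higher and 8.18% lower). The DESeq2 Wald test, run as an alternative, called Csf1 and Il24 (2 of 6, where 0.977% of 12490 genes were called, 0.697% higher and 0.28% lower). The 6 genes were chosen with earlier results of these data known, so these shares are no test of the set. The median log2 fold change was -0.26 over the 6 genes and 0.02 over all genes tested. With 3 libraries against 3, an exact two-sided permutation test cannot give a p below 0.1.

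**Figure D2:**
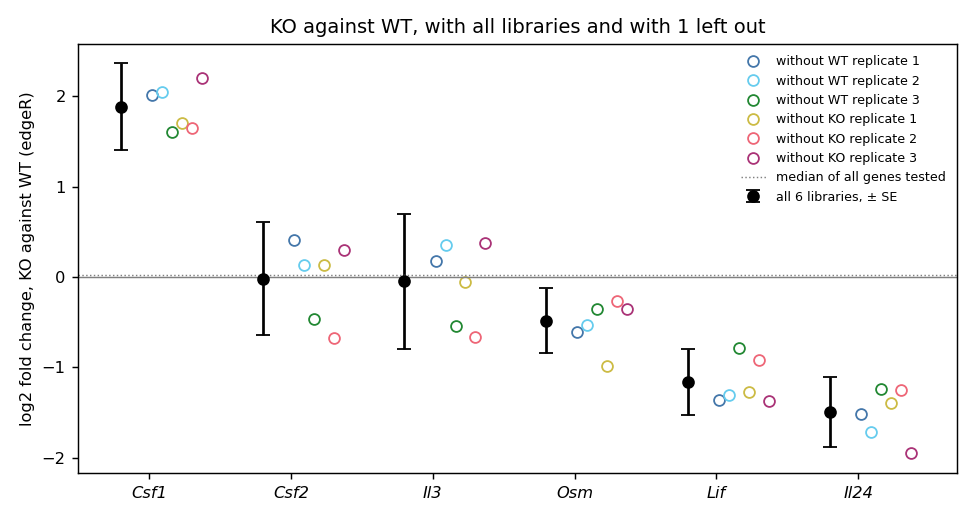
Log2 fold change of each gene, KO against WT, from edgeR (vertical axis). Filled points with bars are the estimate from all 6 libraries ± SE, open points are the estimates with 1 library left out, and the dotted line is the median of all genes tested. Csf1 stayed above 0 and Osm, Lif and Il24 below 0 with any 1 library left out, whereas Csf2 and Il3 fell on both sides.

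Csf1, the macrophage growth factor, was the scarcest of the 6 transcripts and the only one with an estimate above 0. It measured 5.47 and 5.61 CPM in WT replicates 1 and 2 and 2.72 CPM in the library labelled WT replicate 3, against 21.0, 21.9 and 7.82 CPM in KO replicates 1 to 3. Each KO library was above each WT library, and KO replicate 3 was the lowest of the 3. These values rested on 76 to 143 counts per WT library and 78 to 460 per KO library. The means were 4.60 ± 1.62 CPM in WT and 16.9 ± 7.90 CPM in KO (SD, n = 3), a fitted 3.69-fold difference. The log2 fold change was 1.88 ± 0.48 (95% interval 0.80 to 2.97), with unadjusted p = 0.00364 in edgeR and adjusted p = 0.404. DESeq2 gave 1.86 with adjusted p = 0.0138, and over all 21 alternatives the adjusted p ran from 0.0138 to 0.999.

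Markers of myeloid cells, on which Csf1 acts, were low in all libraries, and their sum was higher in KO mainly through Fcer1g and Cd68. The 11 myeloid markers summed to 2.17 to 6.38 CPM in WT and 10.3 to 16.0 CPM in KO. These were the 2 markers tested (log2 fold change 2.59 ± 0.50 for Fcer1g and 1.15 ± 0.46 for Cd68), and neither passed the threshold. Fcgr3 averaged 0.282 CPM in WT and 0.255 CPM in KO. The defining markers Csf1r, Lyz2 and C1qa were at 0 counts in all 6 libraries, and Csf1r was at 0 FPKM as well. Tyrobp had 1 count in each WT library and 10, 3 and 0 counts in KO replicates 1 to 3. Cd14, Itgam, Adgre1 and Spi1 did not exceed 4 counts in any library. At these low counts the WT and KO means were 0.062 and 0.171 CPM for Itgam and 0.012 and 0.178 CPM for Adgre1. They were 0.012 and 0.161 CPM for Spi1, and 0.064 and 0.015 CPM for Cd14. Since the ribosomal protein gene Rpl26 was also listed at 0 counts while it had FPKM values, a 0 in the count table need not mean absence. The part of these cells in the Csf1 difference was not tested.

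Csf2, the granulocyte and macrophage growth factor, had near-equal means in both genotypes and a wide spread within each. It measured 70.5 and 55.6 CPM in WT replicates 1 and 2, 13.1 CPM in the library labelled WT replicate 3, and 35.8, 78.9 and 22.4 CPM in the KO libraries. The groups overlapped over most of their range. The log2 fold change was -0.02 ± 0.62, with adjusted p = 0.991 in edgeR, and its 95% interval ran from -1.44 to 1.40. A change of about the size seen for Lif in either direction therefore remained inside the interval.

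Il3, the neighbouring growth factor, was also highest in KO replicate 2 and lowest in the library labelled WT replicate 3. It measured 45.0 and 51.2 CPM in WT replicates 1 and 2, 7.21 CPM in the library labelled WT replicate 3, and 34.1, 56.3 and 9.42 CPM in the KO libraries. Again the groups overlapped. The log2 fold change was -0.05 ± 0.75 (95% interval -1.75 to 1.66), with adjusted p = 0.986 in edgeR. The sign of both Csf2 and Il3 turned positive with upper quartile or library size scaling and with several other settings, so no direction is given for either gene.

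Csf2 and Il3 were lowest in the libraries with replicate number 3 in both genotypes, and for Csf2 KO replicates 1 and 2 also differed widely, at 35.8 and 78.9 CPM. Csf2 was 4.83-fold lower in the library labelled WT replicate 3, and 2.55-fold lower in KO replicate 3, than the mean of the other 2 libraries of the group. For Il3 the same ratios were 6.67-fold and 4.80-fold. Il2, the T cell growth factor gene, followed this pattern, at 0.502 and 1.90 CPM (14 and 19 counts) in the libraries numbered 3 against 11.9 to 23.7 CPM in the other 4. Il5, a gene of the same cytokine cluster as Csf2 and Il3, ran the other way, at 55.1 and 35.3 CPM against 10.9 to 17.7 CPM. What sets them apart is not given in the labels and was not tested.

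**Figure D3:**
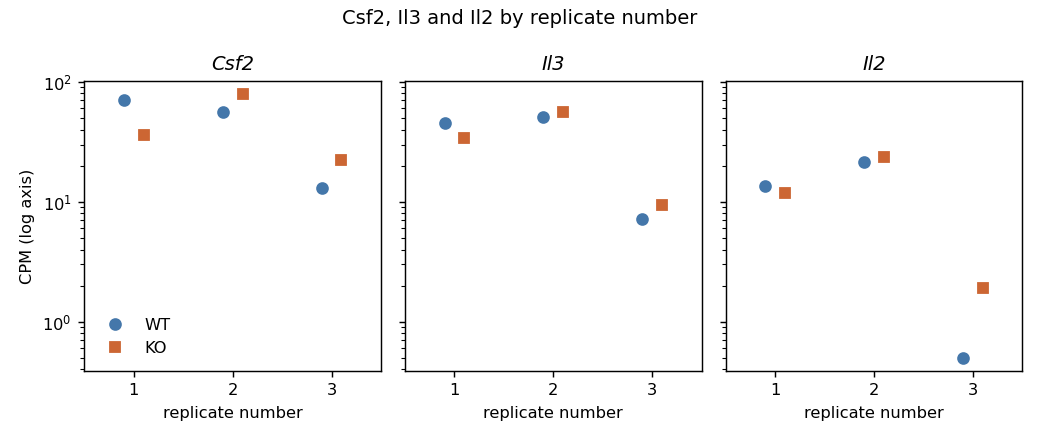
CPM of Csf2, Il3 and Il2 (one panel per gene, log vertical axis) by replicate number, circles for WT and squares for KO. In each panel both libraries numbered 3 lie below the other 4.

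Without both libraries numbered 3, an alternative chosen after seeing the data, the log2 fold changes were -0.14 for Csf2 and -0.10 for Il3. The ratio of Csf2 to Il3 in FPKM stayed between 0.816 and 1.90 in the 6 libraries, while each gene varied more than that. The ratio was 1.24, 0.854 and 1.48 in the WT libraries and 0.816, 1.11 and 1.90 in the KO libraries. The groups overlapped, with a fold of 1.03 between the geometric means (exact two-sided permutation p = 1, n = 3).

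The promoter of Il3 is shown because Il3, of the 6 genes, was the one furthest below the other libraries of its group in the libraries numbered 3, and because it holds a match to the cytokine element CK-1. The table's Csf2 entry starts 232 bases from the GENCODE start and is not shown. The window is chr11:54267230-54267529 on the minus strand of GRCm38.p6, a stretch of 300 bases around the start in the RefSeq table, 5′ to 3′ along the gene.
Il3: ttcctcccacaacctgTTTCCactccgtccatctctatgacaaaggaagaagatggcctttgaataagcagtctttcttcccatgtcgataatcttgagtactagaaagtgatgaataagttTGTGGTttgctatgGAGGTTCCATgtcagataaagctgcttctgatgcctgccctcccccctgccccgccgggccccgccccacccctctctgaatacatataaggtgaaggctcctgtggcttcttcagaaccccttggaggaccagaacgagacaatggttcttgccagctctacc
Capitals mark matches on either strand to the NFAT core GGAAA (at -234), the RUNX element TGTGGT (at -128) and the CK-1 element (at -114), and the AP-1 element TGANTCA was searched without a match. Among 32851 such windows, 61.3% held the NFAT core, 16.8% the RUNX element, 7.81% the AP-1 element and 0.837% CK-1. Since the window was shown partly for its CK-1 match, the CK-1 share is no test of it. The windows of Csf1 and Lif, not shown, held no CK-1 match. A match is a run of letters and not a measured site. Osm and Il24 have no entry.

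Lif, a cytokine of the interleukin 6 family, was lower in KO. It measured 168 and 182 CPM in WT replicates 1 and 2 and 339 CPM in the library labelled WT replicate 3, against 117, 64.5 and 126 CPM in the KO libraries. All KO libraries were below all WT libraries, and the library labelled WT replicate 3 was the highest. The means were 230 ± 94.7 and 103 ± 33.5 CPM (SD, n = 3), a fitted 2.24-fold difference. The log2 fold change was -1.16 ± 0.36 (95% interval -1.99 to -0.33), with unadjusted p = 0.0117 in edgeR, and it did not pass after adjustment (adjusted p = 0.529). Without the library labelled WT replicate 3 the estimate was -0.78.

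Osm, its neighbour and relative, had a lower mean in KO, but KO replicate 1 was at the WT level. It measured 35.3 and 38.5 CPM in WT replicates 1 and 2, 49.3 CPM in the library labelled WT replicate 3, and 46.2, 19.5 and 22.2 CPM in the KO libraries. The groups overlapped through KO replicate 1, the library that stood apart across genes. The log2 fold change was -0.48 ± 0.36 (95% interval -1.30 to 0.34), with adjusted p = 0.754 in edgeR. Without KO replicate 1 it was -0.98, with adjusted p = 0.238, and over all alternatives the adjusted p ran from 0.0840 to 0.999.

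Il24, a member of the interleukin 10 family, was lower in KO by the largest factor of the 5 genes with estimates below 0. It measured 379 and 263 CPM in WT replicates 1 and 2 and 513 CPM in the library labelled WT replicate 3, against 118, 85.3 and 208 CPM in the KO libraries. The highest KO library, replicate 3, stayed below the lowest WT library. The means were 385 ± 126 and 137 ± 63.4 CPM (SD, n = 3), a fitted 2.82-fold difference. The log2 fold change was -1.49 ± 0.39 (95% interval -2.37 to -0.61), with unadjusted p = 0.00412 in edgeR and adjusted p = 0.418. DESeq2 gave -1.51 with adjusted p = 0.0274, and over all alternatives the adjusted p ran from 0.0274 to 0.999. With 1131 to 14320 counts per library, Il24 was the most deeply counted of the 6 genes in every library, though in KO replicate 1 its 2573 counts were close to the 2570 of Lif.

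The CD8 transcripts moved in the same direction as Lif and Il24, and Cd8b1 was called lower in KO (log2 fold change -2.68 ± 0.23, adjusted p = 0.0166 in edgeR). Their part in the lower Lif and Il24 was not tested. The other marker sums ran as follows. Regulatory T cell markers summed to 5065 to 8095 CPM in WT and 4580 to 8560 CPM in KO. Il2ra, at 3298 to 6876 CPM, made up most of this sum, which therefore does not show the Foxp3 difference given above. General T cell markers summed to 947 to 1039 CPM in WT and 1060 to 1242 CPM in KO. Natural killer cell markers summed to 15.9 to 21.4 CPM in WT and 24.3 to 50.5 CPM in KO, mostly Eomes. Type 2 innate lymphoid markers summed to 348 to 474 and 483 to 525 CPM, mostly the T cell gene Gata3. Eomes, Klra7, Rora and Gata3 overlapped between groups. Klrb1b (log2 fold change 2.32 ± 0.65) and Klrb1c (1.94 ± 0.69), on 4 to 60 counts, were higher in each KO library. So were Il1rl1 (1.58 ± 0.29), Il17rb (1.90 ± 0.62, on 6 to 40 counts) and Klrg1 (2.44 ± 0.68). None of these genes passed the threshold. Mast cell and basophil markers, whose cells can express Il3 and Csf2, summed to 2.53 to 10.5 CPM in WT and 3.51 to 11.0 CPM in KO, with Kit contributing most of it in the library labelled WT replicate 3. B cell markers summed to 2.55 to 4.41 and 0.802 to 4.80 CPM.

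Il24 took the largest share of the 6 genes in 5 of the 6 libraries. It made up 64.8% and 55.9% of their summed FPKM in WT replicates 1 and 2 and 78.7% in the library labelled WT replicate 3, and 43.4%, 29.4% and 71.1% in the KO libraries. The shares overlapped, since the libraries numbered 3 were highest in both groups. Csf1 took 0.109% to 0.307% of the sum in WT and 0.728% to 2.01% in KO. The summed FPKM itself ran from 359 to 515 in WT and from 216 to 233 in KO.

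**Figure D4:**
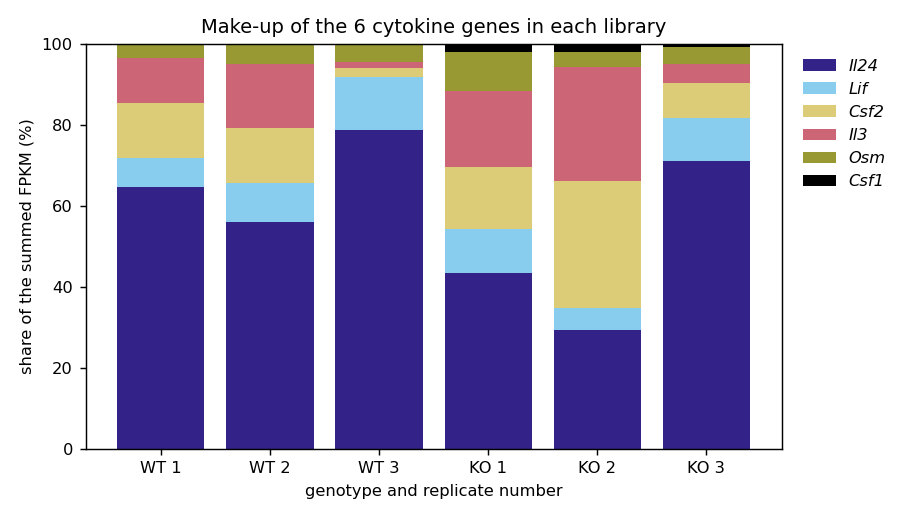
Share of the summed FPKM of the 6 genes (vertical axis, percent) taken by each gene in each library. Il24 is the largest part in 5 libraries, and Csf2 in KO replicate 2, and both libraries numbered 3 hold little Csf2 and Il3.

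All 15 ratios between pairs of the 6 genes were compared in FPKM. The widest difference was the ratio of Csf1 to Il24, which was 0.00372, 0.00549 and 0.00138 in the WT libraries and 0.0463, 0.0667 and 0.0102 in the KO libraries. The geometric mean was 10.4-fold higher in KO, with no overlap (exact two-sided permutation p = 0.1, the smallest possible with n = 3, Benjamini-Hochberg adjusted 0.375). Of the 5 ratios with Csf1, 4 did not overlap, and of the other 10 ratios 0 did so. In FPKM Csf1 was higher, and Lif and Il24 were lower, in every KO library. The ratios of Csf1 to Lif and to Il24 therefore could not overlap, and their permutation p was fixed at 0.1. Those ratios restate the differences of the single genes and are no separate support. The ratio of Lif to Il24 was 0.108 to 0.176 in WT and 0.148 to 0.254 in KO, with overlap, a fold of 1.31 (exact permutation p = 0.4).

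Receptors for these cytokines were mostly scarce. Of 11 receptor genes 7 were tested, and all 7 estimates lay above 0 (median 0.44 on the log2 scale), though none passed the threshold. Over all 11772 genes tested, 6074 had estimates above 0 and 0.017% were called. The groups of 2 receptors did not overlap, where 15.6% of all tested genes did not. With 7 genes this is a description and no test. Il6st, the shared chain for Lif and Osm, had the highest count level, with means of 60.5 CPM (WT) and 80.6 CPM (KO), and the groups did not overlap (log2 fold change 0.41 ± 0.21). Il20rb, a chain of the Il24 receptor, was at 1.67 and 2.14 CPM (0.36 ± 0.39), on 20 to 52 counts per library. Its groups nearly touched, at 1.999 CPM in WT replicate 2 and 2.004 CPM in KO replicate 3. The specific chains Lifr and Osmr did not exceed 6 and 7 counts in any library, and Il22ra1 did not exceed 1. Il3ra measured 13.8 CPM in KO replicate 1 and 1.99 to 5.31 CPM in the other 5 libraries (1.02 ± 0.67). The beta chains Csf2rb (0.09 ± 0.60) and Csf2rb2 (1.56 ± 0.69, on 5 to 45 counts) and the alpha chain Csf2ra (0.44 ± 0.37) overlapped between groups.

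Of 12 genes for the JAK-STAT pathway and its feedback, 8 had estimates above 0 and the median was 0.07, with 0 called and 0 without overlap. Of all tested genes, 0.017% were called and 15.6% did not overlap. The largest estimate, that of the feedback inhibitor Socs1 (1.38 ± 0.66), came from KO replicate 1, at 296 CPM against 45.2 to 55.0 CPM in the other 5 libraries. Cish, another inhibitor of the pathway, was likewise high in that library alone, at 509 CPM against 157 to 200 CPM. Stat3 (-0.16 ± 0.27) and Stat5a (0.39 ± 0.32) overlapped.

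Of 20 transcription factors of activated T cells, which are known to act on cytokine genes, 14 had estimates above 0 and the median was 0.19. None was called, 4 had an unadjusted p under 0.05 (7.51% of all tested genes did), and 5 did not overlap (15.6% of all tested genes did not), and nothing particular to the list is read from these counts. The 4 higher in KO were Runx1 (39.3 to 67.1 CPM, log2 fold change 0.77 ± 0.22), Nfatc1 (94.5 to 177 CPM, 0.90 ± 0.29), the NF-kappa-B subunit Rela (0.95 ± 0.36) and the AP-1 subunit Jun (0.73 ± 0.32). Bhlhe40, a factor known to promote Csf2 expression in T cells, was lower, at 348 and 238 CPM (-0.55 ± 0.25). For comparison with the motifs in the Il3 window, NFAT, RUNX and AP-1 factors were among these genes, but no value here ties them to Il3.

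Among 12 factors that bind AU-rich or stem-loop cytokine mRNAs, 6 had estimates above 0 and the median was 0.11, with 0 called. In edgeR 1 had an unadjusted p under 0.05 (7.51% of all tested genes did), and 2 did not overlap (15.6% of all tested genes did not). Nothing particular to the list is read from these counts. Zfp36, which promotes decay of ATTTA-bearing mRNAs, ranged over 24.6 to 27.9 CPM (WT) and 31.3 to 68.2 CPM (KO), without overlap (log2 fold change 0.83 ± 0.31, unadjusted p = 0.0273 in edgeR). Zfp36l1, its relative, did not overlap either (0.47 ± 0.22). Zfp36l2 (0.28 ± 0.26) and Zc3h12a, the RNase Regnase-1 (0.49 ± 0.39), overlapped. The gene with the densest ATTTA copies, Csf2, had an estimate near 0. Il24, the next densest of the 5 genes shown, had the lowest estimate (-1.49), and Osm, the third, had -0.48. Csf1 and Lif, both with sparse copies, had estimates of 1.88 and -1.16. With 6 genes this is a description and no test.

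Of 15 related cytokines, 6 passed the filter. Il6 averaged 2.13 CPM (WT) and 0.571 CPM (KO, log2 fold change -1.98 ± 0.73), and its groups overlapped. Il10, which shares the gene cluster of Il24, was at 137 and 153 CPM (0.16 ± 0.25). Il22 (-0.78 ± 0.71), Il5 (-0.28 ± 0.64), Flt3l (0.64 ± 0.35) and Clcf1 (0.18 ± 0.44) also overlapped. The others, among them Csf3, Il11 and Il27, were too low to test, and Il27 was at 0 in all libraries.

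Genes next to the 6 members in the GRCm38.p6 gene order were read as background for each locus. Of 40 neighbours 21 were tested, 10 had estimates above 0, the median was -0.01 and 0 were called. The groups of 4 did not overlap, a share near the 15.6% of all tested genes. In edgeR 4 had an unadjusted p under 0.05, where 7.51% of all tested genes did. The genes named next are described for their place beside the members only. Next to Il3, Acsl6, an acyl-CoA synthetase gene, was at 20.0 and 26.7 CPM in WT replicates 1 and 2, 21.1 CPM in the library labelled WT replicate 3, and 7.22, 8.60 and 4.71 CPM in the KO libraries, so all KO values were lower (log2 fold change -1.72 ± 0.33, adjusted p = 0.298 in edgeR). Slc22a21 (-1.56 ± 0.62) and Fnip1 (-0.46 ± 0.39) were the other neighbours of this region whose groups did not overlap. Slc22a21 rested on 1 to 31 counts per library. Fnip1 was at 28.4 CPM in KO replicate 1, but at 88.5 and 86.7 CPM in KO replicates 2 and 3, close to the 91.6 to 94.4 CPM in WT. P4ha2, a prolyl hydroxylase gene on the other side of Csf2, had an estimate of -2.15 ± 0.78, with 32.2 CPM in the library labelled WT replicate 3 and 1.96 to 5.41 CPM in the other 5. Around Il24, Pigr, the polymeric immunoglobulin receptor gene, was the exception, with means of 0.367 (WT) and 1.76 CPM (KO) and an estimate above 0 (2.25 ± 0.62, higher in each KO library). Il10, Fcmr, Mapkapk2 and Dyrk3 had estimates between -0.01 and 0.16, and Il19 and Il20 were too low to test. Around Lif and Osm the groups of Castor1, Tbc1d10a, Sf3a1, Ccdc157, Mtmr3, Ascc2 and Uqcr10 overlapped.

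**Figure D5:**
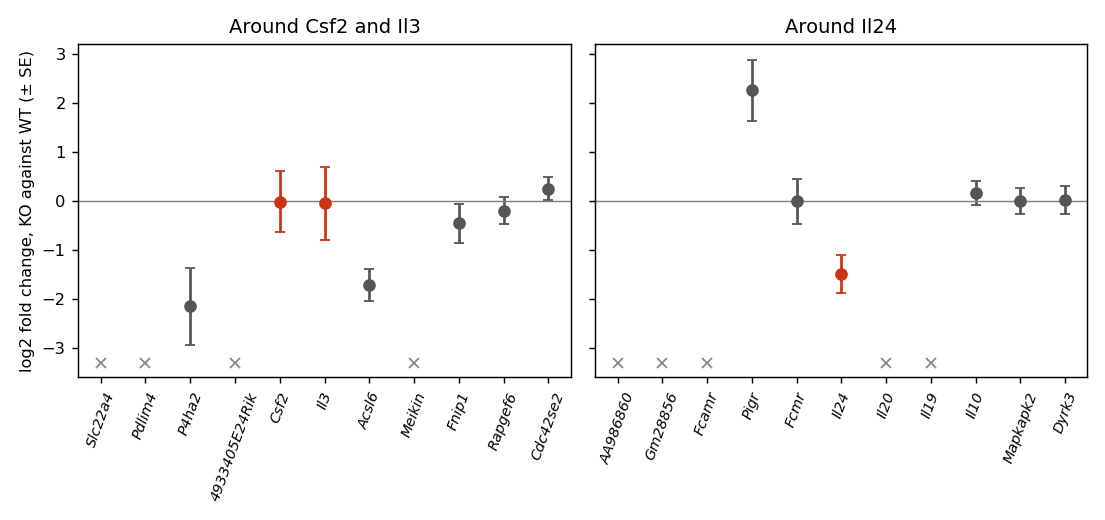
Log2 fold change, KO against WT, ± SE from edgeR (vertical axis) of the genes beside Csf2 and Il3 (left) and beside Il24 (right), in chromosome order. Members are in colour, crosses at the bottom are genes too low to test. Il24 lies below 0 at -1.49, with the tested genes beside it between -0.01 and 0.16, apart from Pigr at 2.25.

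The genes whose log2 CPM followed each member most closely over the 6 libraries were found by Pearson correlation among the tested genes. The members, predicted genes, small RNA genes, rows named by dates, and T cell receptor and immunoglobulin segments were left out. For Csf1 they were Apol9b (0.994), Arnt2 (0.992) and Trpm6 (0.991), each higher in all KO libraries. For Lif they were Ostf1 (0.995), Tsc22d3 (0.995), a glucocorticoid-induced gene, and Fdps (0.992), an enzyme of isoprenoid synthesis, each lower in all KO libraries. For Il24 they were Tnnt1 (0.994), Gpt2 (0.993) and Pecr (0.989), also lower in all of them. For Osm they were Slc7a5 (0.991), an amino acid transporter, Idh2 (0.990) and Marveld1 (0.989), whose groups overlapped. For Csf2 they were Dclre1b (0.981), Dnajc12 (0.980) and Fas (0.974), the death receptor. For Il3 they were Il2 (0.984), Lyplal1 (0.978) and Nif3l1 (0.972). Such correlations were the highest of those 11772 tested genes that remained after these exclusions and are descriptions.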

How the data were processed

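RNA from 3 WT and 3 KO samples was sequenced as stranded mRNA libraries with 75-base single-end reads and analysed with VIPER, per the design text. STAR 2.4.2a aligned the reads, per the file headers, to mm9, a build named in the submitters' processing notes. One deposited table holds raw whole-number counts for each symbol, and another holds FPKM, which the authors scaled by length and depth. How reads were counted (tool, strand, annotation) is not given in the sources used here, and overlapping genes cannot be told apart. The 26 rows named by dates were kept and not named.

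The test was that of edgeR 4.0.16 under R 4.3.3 (TMM, filterByExpr, quasi-likelihood F test, Benjamini-Hochberg over all 11772 genes tested). The script was tested on simulated data. DESeq2 1.42.0, limma 3.58.1 on voom or log2(FPKM + 1) and log2(FPKM + 0.1), other scalings and filters, sex or the replicate number as a term, and left-out libraries were alternatives. Named genes were the 6 members, up to 4 genes of each list with the smallest p and any counted singly, the 3 genes most correlated with each member (r of log2 CPM, prior count 2), the genes beside each member, and Srsf1. Members and lists were chosen with earlier results of these data known. UTR sequences are from GENCODE M21 and the promoter from RefSeq (GRCm38.p6), another build than the counts', so no gene coordinates of the counts are given.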

Additional observations from a re-analysis of the deposited data

How the results depend on the processing

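Over the 21 alternatives Csf1 stayed above 0 (log2 fold change 1.18 to 2.20) and Lif (-1.37 to -0.78), Osm (-0.98 to -0.19) and Il24 (-1.95 to -1.11) below 0. With the DESeq2 Wald test Csf1 (1.86, adjusted p = 0.0138) and Il24 (-1.51, adjusted p = 0.0274) passed the threshold, and no other alternative moved a member across it. The sign of Csf2 and Il3 turned with upper quartile scaling (0.029 and 0.0089), library size scaling (0.048 and 0.028), voom (0.14 and 0.14), log2(FPKM + 1) with and without a filter (0.14 and 0.10) and log2(FPKM + 0.1) with and without a filter (0.15 and 0.11). With 1 library left out, Csf2 ran from -0.67 to 0.41 and Il3 from -0.66 to 0.38. The number of genes called was 2 in edgeR, 6 with no filter, 122 with DESeq2, 1 with voom, 80 with 2 libraries left out together (the one labelled WT replicate 3 and KO replicate 1), and 0 to 3 with 1 library left out (509 to 1272 genes at an unadjusted p under 0.05). It was 0 in edgeR with sex as a covariate (695 at an unadjusted p under 0.05), 0 in edgeR without both libraries numbered 3 (777), chosen after seeing the data, and 0 in limma without a filter for log2(FPKM + 1) (1040) and log2(FPKM + 0.1) (1033). The cause was not tested.

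With the replicate number as a block, 1 gene was called, and Csf2 (0.11) and Il3 (0.035) turned sign. The block called none of the 6 genes. The SE with the block was 0.39 for Csf2 and 0.32 for Il3, against 0.62 and 0.75 without it, while for Osm it was 0.38 against 0.36. Deviations of same-numbered libraries correlated at -0.361, 0.145 and 0.138 for numbers 1, 2 and 3. Number 3 alone correlated best with its own number. With 3 libraries per group such correlations cannot settle whether the numbers pair the samples.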
